A study of Homo sapiens with 12 samples.

Results

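CCL3, CCL4, CCL22, TNF, IL10, EBI3, LTA and LTB encode secreted factors of activated B cells, and their RNA was followed here in JEKO-1, an established mantle cell lymphoma line. The 8 genes were taken by symbol from a table of raw read counts for 64253 genes. That table held 32 rows with these symbols, of which 8 lay on the chromosomes and were used, while the other 24 lay on alternate sequences and had 0 reads in every library. In the table's hg38 coordinates CCL3 (chr17:36088256-36090169) and CCL4 (chr17:36103590-36105621) lie side by side, as do LTA (chr6:31572054-31574324), TNF (chr6:31575567-31578336) and LTB (chr6:31580525-31582522). CCL22 lies at chr16:57358772-57366190, IL10 at chr1:206767602-206772494 and EBI3 at chr19:4229498-4237531, and the counts cover whole genes. Cells had been exposed for 48 h to KPT-330 together with choline salicylate (CS), to KPT-330 alone, to CS alone, or to DMSO, with 3 libraries in each of the 4 groups. KPT-330 (selinexor) blocks CRM1, the receptor that carries proteins and some RNAs out of the nucleus, and choline salicylate is a salt of salicylic acid. The labels give ranges for all experiments of the study, 0.05 to 1.0 µM for KPT-330 and 1 to 3 mM for CS, but no concentration for these libraries. All groups shared the line, the medium and the time point. KPT-330 was dissolved in DMSO and CS in buffered saline, and the labels do not say whether the CS wells also received DMSO. The line stands for 1 tumour, and the labels do not say whether replicates were separate cultures, so each p-value measures only how the libraries of a group scattered, and that scatter may be technical.

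B cells make these factors when signals from the B cell receptor or CD40 activate the NF-kappaB transcription factors, which are held in the cytoplasm by inhibitor proteins and are exported again through CRM1. CCL3 and CCL4 draw T cells, NK cells and monocytes, CCL3 in part through CCR1, whereas CCL22 draws regulatory T cells through CCR4. TNF and lymphotoxin alpha (LTA) bind the TNF receptors, lymphotoxin beta (LTB) anchors LTA on the membrane for binding to LTBR, IL10 dampens immune responses through IL10RA and IL10RB, and EBI3 is the shared beta chain of the cytokines IL-27 and IL-35.

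The promoters are shown for CCL22, EBI3, TNF and IL10, the 4 genes with the lowest levels in cells given both drugs relative to DMSO. Each is the 250 bases before the most upstream RefSeq start on GRCh38.p14, read 5′ to 3′ on the gene's strand. IL10 and CCL3 had 3 RefSeq starts each, LTA and LTB 2 each, and CCL22, EBI3 and TNF 1 each. Capitals mark a match to 1 of 3 motifs searched on both strands. The motifs were the NF-kappaB consensus known as the kappaB motif, the AP-1 motif TGANTCA and the TATA motif TATAAA, none of which overlapped another in these windows. CCL22 (chr16:57358533-57358782, plus strand) held a kappaB match at -185 to -176, EBI3 (chr19:4229273-4229522, plus strand) an AP-1 match at -118 to -112, TNF (chr6:31575315-31575564, plus strand) a TATA match at -29 to -24 and IL10 (chr1:206772495-206772744, minus strand) a TATA match at -30 to -25.
CCL22: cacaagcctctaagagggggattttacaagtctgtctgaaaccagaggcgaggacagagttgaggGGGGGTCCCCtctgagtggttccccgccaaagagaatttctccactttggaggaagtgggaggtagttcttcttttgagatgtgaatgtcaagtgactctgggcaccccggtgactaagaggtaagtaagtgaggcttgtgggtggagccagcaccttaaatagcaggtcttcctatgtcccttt
EBI3: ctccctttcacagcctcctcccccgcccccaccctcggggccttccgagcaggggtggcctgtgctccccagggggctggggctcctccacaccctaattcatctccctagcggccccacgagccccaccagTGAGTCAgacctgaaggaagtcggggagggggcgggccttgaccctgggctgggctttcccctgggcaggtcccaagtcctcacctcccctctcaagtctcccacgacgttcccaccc
TNF: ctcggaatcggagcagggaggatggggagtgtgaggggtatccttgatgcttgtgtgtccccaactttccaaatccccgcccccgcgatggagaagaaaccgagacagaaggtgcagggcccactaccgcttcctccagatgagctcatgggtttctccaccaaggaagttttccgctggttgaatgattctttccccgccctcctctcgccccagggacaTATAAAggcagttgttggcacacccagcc
IL10: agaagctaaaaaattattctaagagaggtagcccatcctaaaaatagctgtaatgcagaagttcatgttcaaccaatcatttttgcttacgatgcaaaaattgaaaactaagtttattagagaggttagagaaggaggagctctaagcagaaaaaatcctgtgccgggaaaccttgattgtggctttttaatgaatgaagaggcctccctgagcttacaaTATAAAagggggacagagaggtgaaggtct
Among 35116 RefSeq promoter windows of the same length, 5.21% held the kappaB motif, 6.57% the AP-1 motif and 10.7% the TATA motif. RefSeq windows were matched for 7 of the 8 genes, the exception being CCL4. Of the others, LTB held a kappaB match on the opposite strand at -86 to -77, CCL3 a TATA match at -29 to -24, and LTA none of the 3. A match describes the letters only, and a window without one says nothing of the factor.

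Libraries held between 35325563 and 59490178 gene-assigned reads. Levels are in CPM, counts scaled to a common library total with TMM-adjusted library sizes. The B lineage markers CD79A, CD79B, MS4A1, PAX5, CD22 and CD74 were all detected in each group, with summed levels of 3118 to 3280 CPM in KPT-330+CS, 3358 to 3460 in KPT-330, 2608 to 2939 in CS and 2235 to 2529 CPM in DMSO libraries, and the mantle cell lymphoma markers CCND1, SOX11 and CD5 were also detected in each. Of other cells that make these factors, a list of 4 NK cell markers summed to at most 0.353 CPM and one of 3 dendritic cell markers to at most 0.514 CPM in any library. The list of 8 myeloid markers summed to 2.39 to 2.54 CPM in KPT-330+CS, 2.26 to 2.47 in KPT-330, 2.53 to 2.69 in CS and 3.35 to 5.52 CPM in DMSO, with S100A8 at 0 reads throughout. The list of 7 T cell markers summed to 4.64 to 5.71 CPM in KPT-330+CS, 19.7 to 21.6 in KPT-330, 8.08 to 9.50 in CS and 11.4 to 12.3 CPM in DMSO, most of it from TRAC, and CD2 was at 0 reads in KPT-330+CS and CS.

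Levels were low throughout. In DMSO cells the mean level per kilobase of gene model was 1.34 CPM for CCL4, 1.11 for CCL3, 1.02 for CCL22, 0.458 for IL10, 0.303 for EBI3, 0.173 for TNF, 0.0576 for LTB and 0.0273 for LTA. On that scale the order in KPT-330+CS cells was CCL3 at 0.855 CPM, CCL4 at 0.605, LTA at 0.0502, IL10 at 0.0464, LTB at 0.0212, EBI3 at 0.00917, CCL22 at 0.00532 and TNF at 0. In KPT-330 cells IL10 had the top level per kilobase, at 0.841 CPM. Because the RNA is bulk, fewer cells making a transcript and less transcript per cell cannot be told apart in any value that follows, and whether groups overlap is judged in CPM.

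The chemokine CCL3 had 50, 59 and 71 reads in KPT-330+CS libraries, 54, 49 and 51 in KPT-330, 49, 76 and 80 in CS, and 82, 81 and 54 in DMSO libraries. Its mean level was 1.28 ± 0.28 CPM in KPT-330+CS, 0.964 ± 0.068 in KPT-330, 1.36 ± 0.22 in CS and 1.66 ± 0.34 CPM in DMSO (SD, n = 3 each). KPT-330 was lowest and lay apart from CS and DMSO, whereas KPT-330+CS overlapped every other group. CCL4 had 56, 51 and 68 reads in KPT-330+CS libraries, 25, 26 and 45 in KPT-330, 88, 144 and 114 in CS, and 140, 115 and 103 in DMSO libraries. Its mean level was 1.23 ± 0.12 CPM in KPT-330+CS, 0.593 ± 0.170 in KPT-330, 2.32 ± 0.57 in CS and 2.73 ± 0.20 CPM in DMSO (SD, n = 3 each). CCL4 was lowest in KPT-330, next in KPT-330+CS, and overlapped between CS and DMSO.

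CCL22 had 1, 1 and 0 reads in KPT-330+CS libraries, 65, 64 and 82 in KPT-330, 83, 93 and 136 in CS, and 156, 141 and 95 in DMSO libraries. Its mean level was 0.0156 ± 0.0139 CPM in KPT-330+CS, 1.31 ± 0.11 in KPT-330, 2.06 ± 0.24 in CS and 2.99 ± 0.60 CPM in DMSO (SD, n = 3 each). The KPT-330+CS libraries were almost without CCL22 reads, KPT-330 lay below CS, and CS and DMSO overlapped.

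TNF had 0 reads in each of the 3 KPT-330+CS libraries, 2, 1 and 0 in KPT-330, 11, 5 and 16 in CS, and 14, 12 and 12 in DMSO libraries. A count of 0 over the group allows up to 3 reads. The 2 groups with KPT-330 overlapped each other and lay below both groups without it. The lymphotoxin genes had too few reads for the filter on low counts: LTA had 2, 3 and 8 reads in KPT-330+CS libraries, 0, 0 and 4 in KPT-330, 2, 1 and 5 in CS, and 1, 3 and 2 in DMSO libraries. LTB had 0, 3 and 1 reads in KPT-330+CS libraries, 6, 1 and 4 in KPT-330, 6, 2 and 11 in CS, and 7, 2 and 3 in DMSO libraries. No difference in LTA or LTB was detectable at this depth: tested without the filter, the lowest Benjamini-Hochberg adjusted p over the comparisons (edgeR quasi-likelihood) was 0.305 for LTA and 0.116 for LTB.

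The cytokine gene IL10 had 4, 2 and 8 reads in KPT-330+CS libraries, 69, 99 and 98 in KPT-330, 17, 35 and 21 in CS, and 47, 38 and 34 in DMSO libraries. Its mean level was 0.0917 ± 0.0451 CPM in KPT-330+CS, 1.66 ± 0.33 in KPT-330, 0.492 ± 0.201 in CS and 0.906 ± 0.073 CPM in DMSO (SD, n = 3 each). The 4 groups did not overlap, with KPT-330 highest and KPT-330+CS lowest. In GENCODE 44 a transcript of IL19 overlaps IL10 on the other strand, and the library kit does not mark the strand, but IL19 had at most 6 reads over any group. EBI3 had 0, 0 and 2 reads in KPT-330+CS libraries, 13, 7 and 6 in KPT-330, 16, 14 and 35 in CS, and 20, 15 and 16 in DMSO libraries. CS and DMSO overlapped for EBI3, KPT-330 lay below them and KPT-330+CS below KPT-330.

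**Figure D1:**
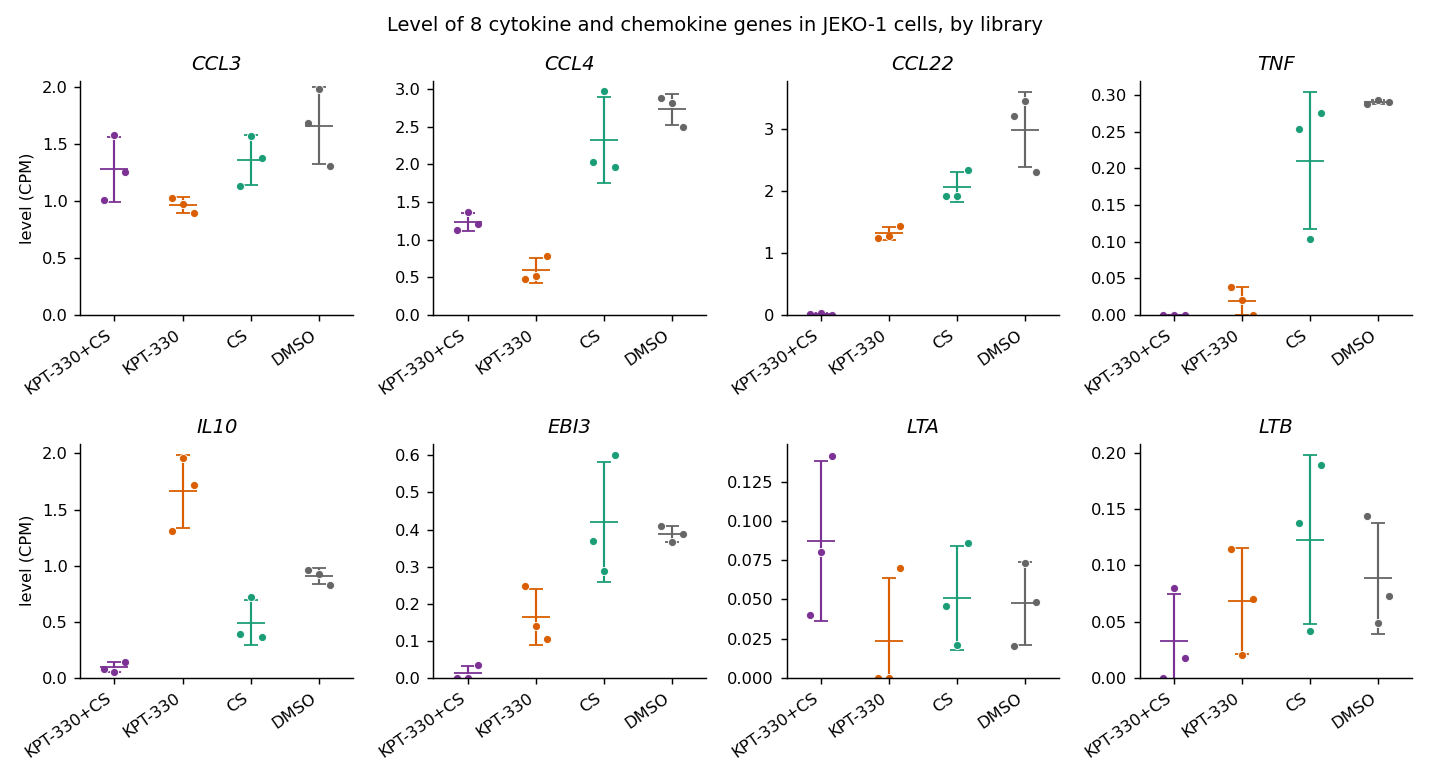
Level of each of the 8 genes in CPM (vertical axis, linear, from 0, with its own range in each panel) in KPT-330+CS, KPT-330, CS and DMSO libraries; points are libraries and bars the mean ± SD of 3. CCL22, TNF, IL10 and EBI3 were lowest in KPT-330+CS, IL10 was highest in KPT-330, and CCL4 was lowest in KPT-330.

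The first comparison asks how both drugs together differ from the DMSO control. CCL22, TNF and EBI3 fell to 2, 0 and 2 reads over the KPT-330+CS group, IL10 and CCL4 fell with more reads left, and CCL3 did not pass the test. Of the 6 genes tested, 5 were lower and none was higher at an adjusted p of 0.05 or less (edgeR quasi-likelihood test, Benjamini-Hochberg over all 19460 genes tested), beside 55.5% of all tested genes called in either direction and 26.2% called lower. With the study's added limit of an absolute log2 fold change over 2, 4 of the 6 were called, beside 4.36% of all genes. Their median log2 fold change was -3.89, or -3.50 with TNF set at a floor of 3 reads over KPT-330+CS, against 0.04 over all genes tested.

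CCL22 was lower by a ratio of scaled reads of 215 in KPT-330+CS cells, with a 95% exact counting interval of 59.3 to 1790 (2 reads over the KPT-330+CS group, 392 over DMSO; adjusted p = 3.47e-09). Its fitted log2 fold change was -7.50, or -6.87 without KPT-330+CS replicate 3, which had 0 CCL22 reads. TNF had 0 reads over KPT-330+CS and 38 over DMSO (edgeR quasi-likelihood, adjusted p = 0.000195). Set at a floor of 3 reads over KPT-330+CS, its level there was 13.9-fold lower. The EBI3 ratio was 28 lower, with an interval of 7.37 to 238 (2 reads over KPT-330+CS and 51 over DMSO; adjusted p = 0.000107). These intervals cover counting error only. The TNF value takes the DMSO reads as exact and is not a 95% limit. Both EBI3 reads came from KPT-330+CS replicate 3, and without that library EBI3 had 0 reads in KPT-330+CS and still passed (adjusted p = 0.000226). IL10, with 14 reads over KPT-330+CS and 119 over DMSO, had a log2 fold change of -3.20 ± 0.38 (SE; adjusted p = 1.01e-05). CCL4 changed by -1.16 ± 0.20 (adjusted p = 0.000294), but by -0.23 (adjusted p = 0.092) with the reads of its near-identical copy added, and CCL3 by -0.39 ± 0.20 (adjusted p = 0.125). Without DMSO replicate 3, CCL3 passed at -0.53 (adjusted p = 0.0489). The myeloid marker list, from cells that also make these factors, had 1 gene higher and 3 of 4 tested genes lower in KPT-330+CS than in DMSO, and its part in these values was not tested. The T cell marker list had 3 genes higher and 1 of 5 tested lower, while IL10 was lower, and its part was not tested either.

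Receptors, other cytokines and signalling genes were counted in the same way, beside 29.3% of all tested genes called higher and 26.2% called lower. Of 10 tested genes for their receptors, 2 were higher and 2 lower in KPT-330+CS than in DMSO cells. IL10RA, the ligand-binding chain of the IL10 receptor, was at 24.5 ± 2.9 CPM in KPT-330+CS and 51.8 ± 6.7 CPM in DMSO cells (SD, n = 3 each), a log2 fold change of -1.08 ± 0.12 (adjusted p = 4.24e-06). CCR4 had at most 6 reads over any group and LTBR at most 2, so neither was tested. Of the possible partner chains of EBI3, IL27 had 0 reads in every group, and IL12A, with 73 reads over KPT-330+CS and 43 over DMSO, had a log2 fold change of 0.60 ± 0.40 that did not pass (adjusted p = 0.216).

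Among 22 tested genes for other cytokines and chemokines, 6 were higher and 3 lower. CXCL10, an interferon-inducible chemokine that draws T cells, was lower by a ratio of 42.9 (interval 7.26 to 1740; 1 read over KPT-330+CS and 39 over DMSO), and CCL17, another ligand of CCR4, by a ratio of 18 (5.79 to 90.1; 3 and 49 reads). The fitted log2 fold change of CXCL10 was -4.99, or -6.86 without KPT-330+CS replicate 3, which held its read, and that of CCL17 was -3.98, or -4.97 without KPT-330+CS replicate 2 and -3.33 without replicate 3. IL18 was higher, with 38 reads over KPT-330+CS and 5 over DMSO, and TNFSF14, a ligand of TNFRSF14 and LTBR, was lower, with 60 reads over KPT-330+CS and 203 over DMSO. Their log2 fold changes were 2.71 ± 0.63 for IL18, or 4.29 without DMSO replicate 3, and -1.89 ± 0.21 for TNFSF14.

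Of 23 genes for NF-kappaB subunits, inhibitors and targets, all tested, 1 was higher and 14 were lower, with a median log2 fold change of -0.50. The anti-apoptotic BCL2A1 was at 2.96 ± 0.27 CPM in KPT-330+CS and 21.6 ± 2.2 CPM in DMSO cells, and the activation marker CD83 at 17.0 ± 1.2 CPM in KPT-330+CS and 72.6 ± 3.6 CPM in DMSO cells (SD, n = 3 each). The log2 fold changes were -2.86 ± 0.12 for BCL2A1, -2.09 ± 0.07 for CD83, -1.72 ± 0.24 for the NF-kappaB cofactor BCL3 and -1.60 ± 0.10 for the adhesion molecule ICAM1. Of 24 tested B cell receptor signalling genes, 3 were higher and 11 lower, led by the immediate early genes EGR3 at -3.19 ± 0.31 and EGR1 at -2.98 ± 0.17 and the ERK phosphatase DUSP5 at -2.41 ± 0.11. The log2 fold changes of the other tested genes of that list lay between -0.58 and 0.51.

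The 12 genes for mRNA decay and TNF shedding divided into 2 higher and 4 lower, beside 55.5% of all tested genes called in either direction. The largest changes were those of ZFP36L2 at 0.67 ± 0.09, HNRNPD at -0.67 ± 0.07, the TNF sheddase ADAM17 at 0.65 ± 0.06 and the mRNA-stabilizing ELAVL1 at -0.55 ± 0.04. TNF, LTA and LTB lie together on chromosome 6, and of 5 tested neighbours 2 were higher and 2 lower. The largest changes there were those of ATP6V1G2 at 1.73 ± 0.12 and AIF1 at -0.90 ± 0.15. Each call named in these lists had an adjusted p of at most 0.00253 and none was lost when any single library was left out.

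**Figure D2:**
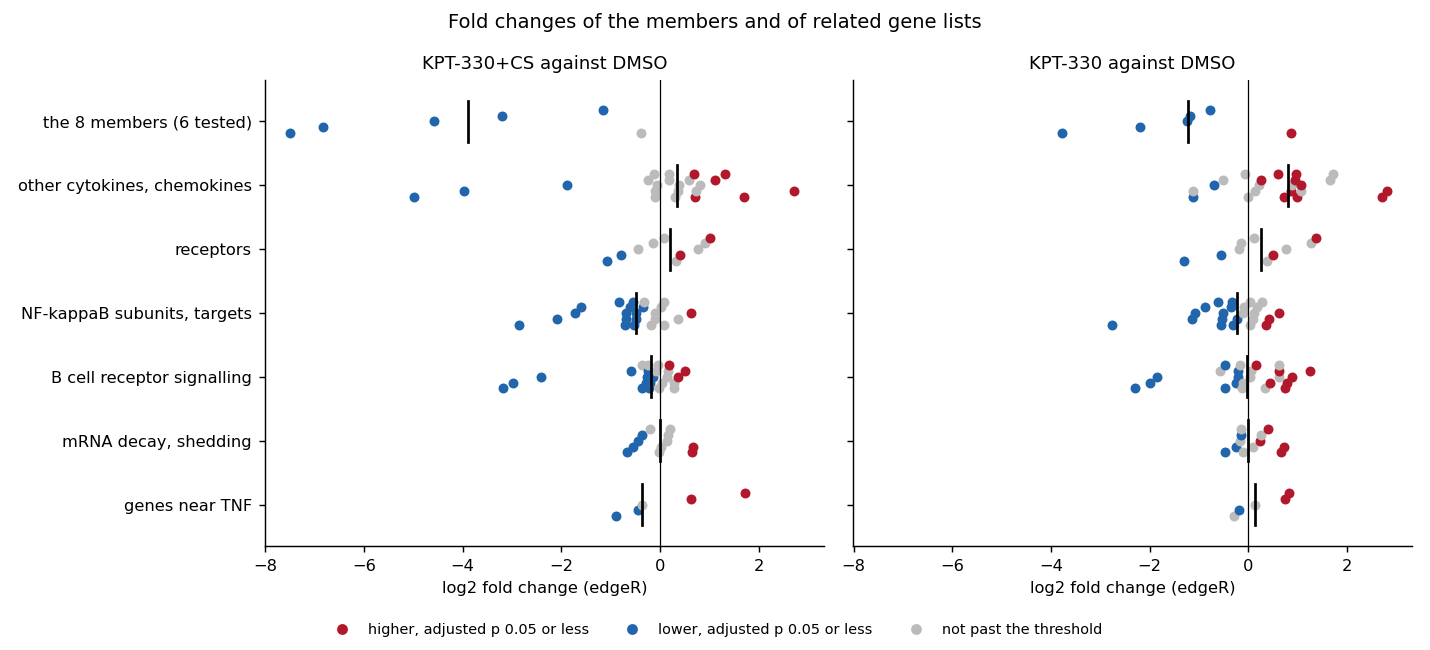
Log2 fold change (edgeR, horizontal axis, same range in both panels) of the 6 tested members and of genes in 6 related lists, for KPT-330+CS against DMSO and KPT-330 against DMSO; each point is a gene, red and blue points passed an adjusted p of 0.05 and the black line is the list's median. With both drugs the median was -3.89 for the members and -0.50 for the NF-kappaB list; fits with 3 reads or fewer in a group depend on the prior count.

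Against the same DMSO libraries, KPT-330 alone lowered CCL4, CCL22, CCL3, TNF and EBI3 and raised IL10. The 6 tested genes were all called, 1 higher and 5 lower, beside 48.5% of all tested genes called, 24.7% higher and 23.8% lower. Past the study's fold limit 2 were called, beside 3.02% of all genes. Their median log2 fold change was -1.21 against 0.04 over all genes. The myeloid marker list had 0 genes called higher and 3 of 4 tested genes called lower in KPT-330 than in DMSO cells. Its other tested gene, CSF1R, was at 1.06 and did not pass (110 reads over KPT-330, 44 over DMSO, edgeR quasi-likelihood adjusted p = 0.0705). ITGAM, not tested, had 33 reads over KPT-330 and 5 over DMSO. The part of the myeloid list in the values of the 6 genes was not tested.

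CCL4 changed by -2.19 ± 0.22 (edgeR quasi-likelihood, adjusted p = 3.87e-06), CCL22 by -1.18 ± 0.19 (adjusted p = 0.00019) and CCL3 by -0.78 ± 0.21 (adjusted p = 0.00724). With the reads of their near-identical copies added, CCL4 was at -0.77 and still passed, and CCL3 was at -0.39 and did not (adjusted p = 0.0845). TNF was lower by a ratio of scaled reads of 15.5, with a 95% interval of 4.92 to 78.5 (3 reads over KPT-330 and 38 over DMSO; adjusted p = 0.000932). Without KPT-330 replicate 1, which held 2 of the 3 reads, the fitted log2 fold change of TNF was -4.62 in place of -3.78, and TNF still passed. IL10 was higher by 0.87 ± 0.25 on the log2 scale, or 1.83-fold (adjusted p = 0.0116), and missed the threshold without KPT-330 replicate 2 (0.74, adjusted p = 0.0554). T cells also make IL10, and the T cell marker list was higher in KPT-330 than in DMSO cells, with 5 of 5 tested genes called; its part in the IL10 value was not tested. EBI3 changed by -1.25 ± 0.45 (adjusted p = 0.0352), a call lost without KPT-330 replicate 2 (-1.15) or 3 (-0.997), without DMSO replicate 1 (-1.20), 2 (-1.28) or 3 (-1.25), and with library size as the only scaling (-1.09). The slope of log2 counts on GC content was 0.195 to 0.228 per 10 percentage points in KPT-330 libraries and -0.314 to 0.087 in DMSO libraries, and with a GC correction all 6 calls remained.

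Most other cytokine genes that passed were higher in KPT-330 cells: 10 of 22 tested were higher and 2 lower. TNFSF8, the ligand of CD30, was at 21.96 ± 0.95 CPM in KPT-330 and 3.13 ± 0.64 CPM in DMSO cells (SD, n = 3 each), a log2 fold change of 2.81 ± 0.14, while the transmembrane chemokine CXCL16 rose by 2.72 ± 0.27 and VEGFA fell by 1.13 ± 0.13 (SE). Of the receptors 2 were higher and 2 lower, led by TNFRSF14 at 1.37 ± 0.32, or 0.75 with a GC correction, and IL10RA at -1.30 ± 0.12. In the NF-kappaB list 3 were higher and 12 lower, led by BCL2A1 at -2.77 ± 0.12, the ubiquitin ligase BIRC3 at -1.15 ± 0.09 and CD83 at -1.09 ± 0.07. In the B cell receptor list 7 were higher and 8 lower, led by EGR3 at -2.29 ± 0.27, DUSP5 at -1.99 ± 0.10 and EGR1 at -1.86 ± 0.15. Next in size was NFATC1, which was higher at 1.26 ± 0.085. CCL17, which lies near CCL22, had 42 reads over KPT-330 and 49 over DMSO, and its log2 fold change of -0.51 ± 0.49 did not pass (adjusted p = 0.415).

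CS alone left all 6 tested genes short of the threshold. With edgeR's quasi-likelihood test 0 of 6 were called, beside 8.88% of all tested genes, 3.76% higher and 5.13% lower, with DESeq2 also 0, and 2 had an unadjusted p under 0.05. The median log2 fold change was -0.37 against -0.01 over all genes. IL10 had the lowest value, -0.89 ± 0.29 (adjusted p = 0.0732), with all 3 CS libraries below the 3 DMSO libraries, and passed without CS replicate 2 (-1.27, adjusted p = 0.0301). CCL22 was at -0.53 ± 0.18 (adjusted p = 0.0872) and passed without DMSO replicate 3 (-0.69, adjusted p = 0.0309). With a GC correction both passed, at -0.89 for IL10 (adjusted p = 0.0279) and -0.55 for CCL22 (adjusted p = 0.0153). TNF was at -0.45 ± 0.46, CCL3 at -0.28 ± 0.20, CCL4 at -0.24 ± 0.19 and EBI3 at 0.13 ± 0.40, with adjusted p-values from 0.455 to 0.901.

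In CS against DMSO cells the lists held calls in both directions: 2 higher and 3 lower of 22 other cytokine genes, 1 higher and 3 lower of 24 B cell receptor genes, 0 higher and 1 lower of 12 decay genes, and 1 higher and 2 lower of 5 neighbours of TNF. In the NF-kappaB list 0 genes were higher and 1 of 23 was lower, IRF4 at -0.30 ± 0.05 (adjusted p = 0.00396, or 0.11 with only the CS and DMSO libraries in the fit). TNFSF14 was lower, with 102 reads over CS and 203 over DMSO and a log2 fold change of -1.18 ± 0.20 (adjusted p = 0.00271). DUSP5 was also lower, at 4.59 ± 0.43 CPM in CS and 14.0 ± 0.7 CPM in DMSO cells (SD, n = 3 each), a log2 fold change of -1.61 ± 0.10 (adjusted p = 1.52e-06). EGR3 was higher, with 412 reads over CS and 202 over DMSO and a log2 fold change of 0.84 ± 0.22 (adjusted p = 0.0296), a call lost in 4 of the 12 leave-outs of a single library (values of 0.62 to 0.98 over all 12) and with only the CS and DMSO libraries in the fit (adjusted p = 0.115). Of the receptors 0 were higher and 2 lower, TNFRSF1A at -0.60 ± 0.15 (adjusted p = 0.0256) and IL10RA at -0.41 ± 0.12 (adjusted p = 0.0462). Leaving out single libraries ended the TNFRSF1A call in 4 of 12 cases, with values from -0.73 to -0.46, and the IL10RA call in 8 of 12, with values from -0.50 to -0.31. With only the CS and DMSO libraries in the fit neither passed (adjusted p = 0.183 for TNFRSF1A and 0.2 for IL10RA), nor did IL10RA with library size alone (adjusted p = 0.126).

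Adding CS to KPT-330 was compared with KPT-330 alone. CCL22, IL10 and EBI3 were lower in KPT-330+CS cells than in KPT-330 cells, and CCL4 was higher. Of the 6 tested, 1 was called higher and 3 lower, beside 37.6% of all tested genes, 19.7% higher and 17.9% lower. The 3 lower genes also passed the study's fold limit, beside 0.853% of all genes. The median log2 fold change was -3.20, or -3.34 with TNF left out, against -0.001 over all genes.

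IL10 had 14 reads over KPT-330+CS and 266 over KPT-330, a log2 fold change of -4.07 ± 0.35 (edgeR quasi-likelihood, adjusted p = 2.85e-06). CCL22 was lower by a ratio of 94.7 (interval 25.9 to 787; 2 reads over KPT-330+CS and 211 over KPT-330; adjusted p = 3.62e-07). EBI3 was lower by a ratio of 11.7 (interval 2.92 to 101; 2 reads over KPT-330+CS and 26 over KPT-330; adjusted p = 0.006). Without KPT-330+CS replicate 3 the fitted log2 fold change of CCL22 was -5.69 in place of -6.32, and that of EBI3, then with 0 reads in KPT-330+CS, -5.99 in place of -3.33. CCL4 was higher by 1.03 ± 0.23, or 2.05-fold (adjusted p = 0.00364), and CCL3 was at 0.39 ± 0.21 (adjusted p = 0.161). For TNF both groups were at or under 3 reads, so no fold is given. None of the 4 calls was lost when any single library was left out.

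TNFSF8 and TNFSF14 were lower in KPT-330+CS than in KPT-330 cells, at -1.69 ± 0.13 and -1.81 ± 0.21, and the other cytokine list as a whole had 3 genes higher and 7 lower. CXCL10 was lower by a ratio of 19.8 (interval 3.19 to 815) and CCL17 by a ratio of 12.6 (4.02 to 63.4). Their fitted log2 fold changes were -3.87 and -3.47; that of CXCL10 was -5.74 without KPT-330+CS replicate 3 and -3.24 without KPT-330 replicate 3, and that of CCL17 -4.46 without KPT-330+CS replicate 2 and -2.82 without replicate 3. In the NF-kappaB list 3 genes were higher and 7 lower, led by ICAM1 at -1.09 ± 0.10, CD83 at -1.004 ± 0.07, the inhibitor gene NFKBIE at -0.97 ± 0.14 and IRF4 at -0.94 ± 0.05. The receptors divided into 2 higher and 2 lower, led by TNFRSF1B, which encodes TNF receptor type II, at -0.83 ± 0.22. Over the same libraries the T cell marker list was lower in KPT-330+CS than in KPT-330, with 0 genes higher and 3 of 5 lower, and its part in the IL10 difference was not tested. Of 4 tested genes of the myeloid marker list, 0 were higher and 0 lower.

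Against CS alone, KPT-330+CS cells had lower CCL22, TNF, EBI3, IL10 and CCL4. Of the 6 tested, 5 were called, all lower, beside 47.8% of all tested genes, 26.1% higher and 21.7% lower. Past the study's fold limit 4 were called, beside 3% of all genes. The ratio of scaled reads was 150 for CCL22 (interval 41 to 1240, edgeR quasi-likelihood adjusted p = 1.67e-08). That of EBI3 was 31.1 (8.28 to 263, adjusted p = 9.44e-05). TNF had 0 reads over KPT-330+CS and 32 over CS (edgeR quasi-likelihood, adjusted p = 0.000616). Set at a floor of 3 reads over KPT-330+CS, the TNF level there was 10.2-fold lower. This TNF value takes the CS reads as exact and is not a confidence limit. Without KPT-330+CS replicate 3 the fitted log2 fold change of CCL22 was -6.34 in place of -6.97, and that of EBI3 -7.36 in place of -4.71. IL10 was at -2.31 ± 0.41 (adjusted p = 0.000449), or -2.905 (adjusted p = 0.000579) without the libraries of lowest GC slope in KPT-330+CS, CS and DMSO, and CCL4 at -0.92 ± 0.20 (adjusted p = 0.00217), or -0.27 (adjusted p = 0.0605) with the reads of its copy added. CCL3 was at -0.10 ± 0.21 and did not pass (adjusted p = 0.71). The median log2 fold change was -3.51, or -2.83 with TNF at its floor value, against 0.04 over all genes. In the NF-kappaB list 1 gene was higher and 14 were lower, among them BCL2A1 at -2.71 ± 0.12 and CD83 at -2.02 ± 0.07. The T cell marker list had 2 genes higher and 1 of 5 tested lower, and the myeloid list 1 higher and 2 of 4 tested lower. The part of these marker lists in the values was not tested.

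CS and KPT-330 were also compared directly, with CS on top of the fold change. TNF, CCL4, EBI3 and CCL22 were higher in CS than in KPT-330 cells and IL10 was lower. Of the 6 tested, 4 were called higher and 1 lower, beside 42.8% of all tested genes, 20.2% higher and 22.6% lower. TNF alone passed the study's fold limit, beside 2.67% of all genes. CCL4 was at 1.95 ± 0.22 (edgeR quasi-likelihood, adjusted p = 1.42e-05), or 0.80 with the reads of its copy added (adjusted p = 7.7e-05), and IL10 at -1.76 ± 0.27 (adjusted p = 0.000176). The T cell marker list was lower in CS than in KPT-330 cells in 5 of 5 tested genes, and its part in the IL10 value was not tested. The myeloid marker list had 1 gene higher and 0 of 4 tested genes lower. TNF was higher in CS by a ratio of 11.4 (interval 3.56 to 58.1; 32 reads over CS and 3 over KPT-330; adjusted p = 0.00328), and its fitted log2 fold change was 4.17 without KPT-330 replicate 1, in place of 3.33. CCL22 was at 0.65 ± 0.19 (adjusted p = 0.0147) and missed the threshold without KPT-330 replicate 1 (0.61, adjusted p = 0.0539). EBI3 was at 1.37 ± 0.44 (adjusted p = 0.022) and missed it without KPT-330 replicate 2 (1.28) or 3 (1.12) or CS replicate 3 (1.02). CCL3 was at 0.50 ± 0.21 and did not pass (adjusted p = 0.0708), but passed with a GC correction (0.52, adjusted p = 0.0403) and with only the CS and KPT-330 libraries in the fit (adjusted p = 0.0471).

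The interaction tests whether adding CS changed a gene differently with KPT-330 than without it. CCL22, EBI3 and IL10 were lower in KPT-330+CS than the separate changes sum to on the log2 scale, and CCL4 was higher. Of the 6 tested, 1 was called higher and 3 lower, beside 14.7% of all tested genes, 8.04% higher and 6.62% lower. The 3 lower genes were also past a log2 value of 2 in size, beside 0.761% of all genes. The values were -5.78 ± 0.51 for CCL22 (edgeR quasi-likelihood, adjusted p = 2.1e-05), -3.18 ± 0.48 for IL10 (adjusted p = 0.00096), -3.46 ± 0.92 for EBI3 (adjusted p = 0.0244) and 1.27 ± 0.30 for CCL4 (adjusted p = 0.014), or 0.50 with the reads of its copy added (adjusted p = 0.0455). Those of CCL22 and EBI3 rest on 2 reads over KPT-330+CS each and depend on the prior count. The SE of these 2 values comes from the F statistic and can be smaller than the counting error of so few reads. The CCL22 value was -5.16 without KPT-330+CS replicate 3 and -5.06 without the libraries of lowest GC slope in KPT-330+CS, CS and DMSO, and passed in both. EBI3 missed the threshold without KPT-330+CS replicate 1 (-2.94) or 2 (-3.09), KPT-330 replicate 1 (-3.04), CS replicate 3 (-3.10) or DMSO replicate 2 (-3.43), and passed at -6.12 without KPT-330+CS replicate 3, the only library of that group with EBI3 reads. CCL3 was at 0.68 ± 0.29 (adjusted p = 0.142) and TNF, with 3 reads or fewer in each group given KPT-330, at -2.61 ± 1.60 (adjusted p = 0.305).

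In the lists, 5 of 23 NF-kappaB genes had a lower and 1 a higher interaction, led by NFKBIE at -0.99 ± 0.19, ICAM1 at -0.95 ± 0.13 and CD83 at -0.94 ± 0.10. Of 10 receptor genes 3 were higher and 2 lower, led by TNFRSF1B at -1.26 ± 0.31. Of 24 B cell receptor genes 1 was higher and 6 lower, led by EGR3 at -1.74 ± 0.44, DUSP5 at 1.185 ± 0.146 and NFATC1 at -1.14 ± 0.12. Of the other cytokine genes 1 was higher and 4 lower, led by TNFSF8 at -1.86 ± 0.18. CXCL10 at -2.40 ± 1.07 (adjusted p = 0.154) and CCL17 at -2.82 ± 1.00 (adjusted p = 0.0793) did not pass, and CCL17 passed without DMSO replicate 1 (-3.16, adjusted p = 0.0408). The 3 comparisons with DMSO share its libraries, and those with a single drug share the KPT-330+CS libraries.

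**Figure D3:**
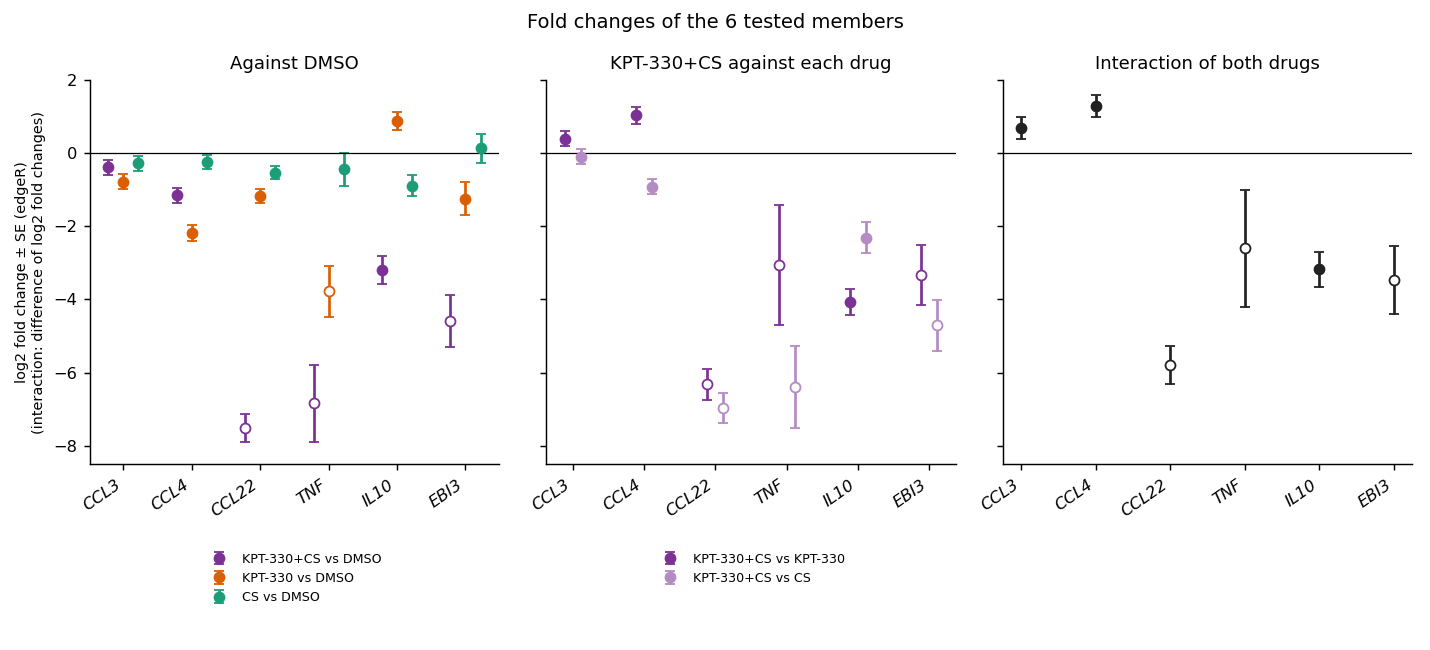
Log2 fold change ± SE (edgeR, vertical axis) of the 6 tested genes against DMSO, of KPT-330+CS against KPT-330 and against CS, and their interaction term; open symbols mark fits in which a group had 3 reads or fewer, which depend on the prior count. CCL4 was at -1.16 in KPT-330+CS and -2.19 in KPT-330, and IL10 at -3.20 in KPT-330+CS and 0.87 in KPT-330, each against DMSO. The SE comes from the F statistic, and at open symbols it can be smaller than the counting error.

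CCL3 and CCL4 have near-identical copies beside them on chromosome 17, and how the authors' counting divided reads among them is not given in the sources used here. Over the aligned bases of the longest coding transcripts in GENCODE 44, CCL3 and CCL3L3 shared 96.2% of bases, CCL4 and the gene the table calls CCL4L1 (CCL4L2 in GENCODE 44) 96.2%, and CCL3 and CCL4 63.0%. CCL3L3 had 55, 32 and 45 reads in KPT-330+CS libraries, 46, 41 and 35 in KPT-330, 17, 29 and 31 in CS, and 39, 23 and 19 in DMSO libraries. CCL4L1 had 254, 198 and 332 reads in KPT-330+CS libraries, 227, 177 and 235 in KPT-330, 269, 255 and 324 in CS, and 237, 236 and 188 in DMSO libraries, more than CCL4 in every library.

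Against DMSO, CCL3L3 was at 0.58 ± 0.26 in KPT-330+CS (adjusted p = 0.0723) and 0.32 ± 0.26 in KPT-330 (adjusted p = 0.336), and CCL4L1 at 0.10 ± 0.12 in KPT-330+CS (adjusted p = 0.526) and -0.35 ± 0.12 in KPT-330 (adjusted p = 0.0352). The CCL4L1 call in KPT-330 was lost without KPT-330 replicate 2 (-0.26) or 3 (-0.37) or DMSO replicate 2 (-0.24), with no filter (adjusted p = 0.0773), with library size alone (-0.19, adjusted p = 0.219) and with only the KPT-330 and DMSO libraries in the fit (adjusted p = 0.0938). With the reads of each gene and its copy summed, CCL4 in KPT-330 remained lower than in DMSO at -0.77 (adjusted p = 8.76e-05) and remained higher in KPT-330+CS than in KPT-330 at 0.54 (adjusted p = 0.00203). CCL3 also overlaps CCL3-AS1 on the other strand.

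**Figure D4:**
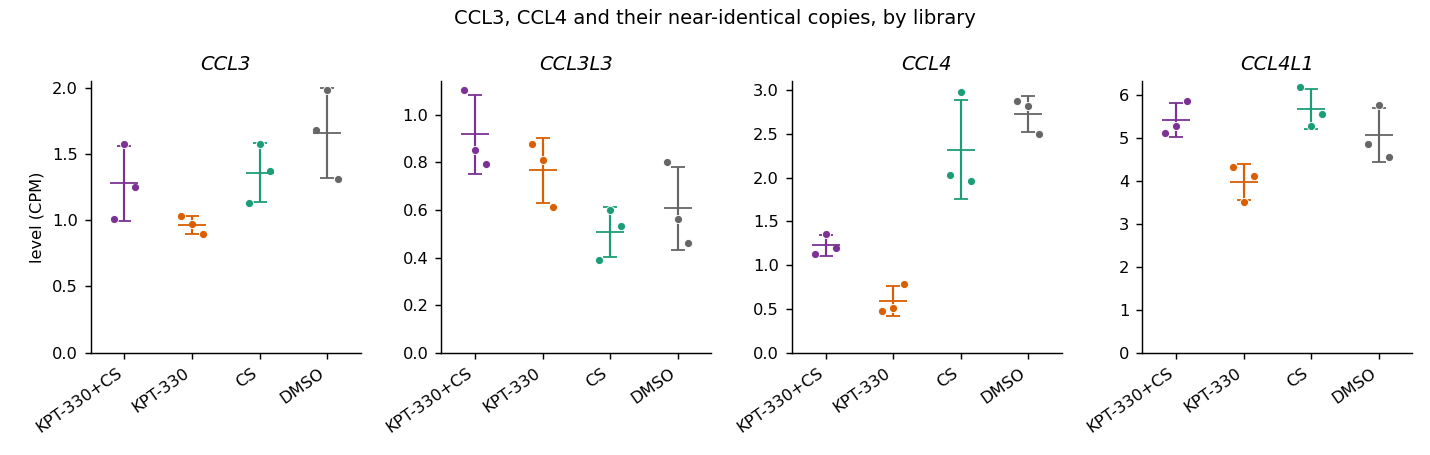
Levels of CCL3, CCL4 and their copies CCL3L3 and CCL4L1 in CPM (vertical axis, linear, from 0, own range in each panel) in KPT-330+CS, KPT-330, CS and DMSO libraries; points are libraries and bars the mean ± SD of 3. CCL4 averaged 0.593 CPM in KPT-330 and 2.73 CPM in DMSO, and CCL4L1 averaged 3.98 CPM in KPT-330 and 5.07 CPM in DMSO.

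The genes whose log2 levels followed each of the 3 more abundant chemokines most closely were ranked by Pearson's r over the 12 libraries, which share the 4 groups, as a description. For CCL22 they were MTHFD1 (r = 0.993), ADAM19 (0.992) and NCAPD3 (0.992), with MTHFD1 at a mean of 239 CPM in KPT-330+CS and 536 CPM in DMSO cells. For CCL4 they were IL2RA (0.978), which encodes a chain of the interleukin-2 receptor, NLRP2 (0.972) and VOPP1 (0.972). IL2RA averaged 3.79 CPM in KPT-330+CS, 2.24 in KPT-330, 6.66 in CS and 6.60 CPM in DMSO cells. For CCL3 they were ETS2 (0.901), VDAC1P1 (0.88) and TRAFD1 (0.839).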

How the data were processed

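Per the labels, poly(A) RNA of JEKO-1 cells, taken with an extraction kit meant for fixed tissue, was sequenced from unstranded libraries. The values are raw read counts per gene, deposited by the authors; per the series design text, reads were aligned to hg38 with STAR and genes follow Ensembl 78. Not given in the sources used here are the program that counted reads, its strand setting and how it handled reads matching several genes. The 12 libraries were placed in 4 groups of 3 by their labels.

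Here edgeR 4.0.16 (R 4.3.3) was run on the counts: filterByExpr by group left 19460 of 64253 genes, TMM scaled the libraries, and 1 robust quasi-likelihood model of the 12 libraries had group as its term and 8 residual degrees of freedom. Its two-sided F-test p-values were adjusted within each comparison by Benjamini-Hochberg across tested genes, with a threshold of 0.05, and the study's own limit of an absolute log2 fold change over 2 is given beside it. A gene with 3 or fewer reads over a group is given as a ratio of scaled reads with a 95% exact conditional binomial interval. A group at 0 is set at a floor of 3 reads over the group, without an interval. The SE of a log2 fold change is its size divided by the square root of its F statistic. With few reads that SE can be smaller than the counting error. The script was tested on simulated data.

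The 6 tested members were named in every comparison, and LTA and LTB are given only by reads and their lowest adjusted p over the comparisons. In the related lists described, up to 4 genes past the threshold were named by size of change. List counts stand beside the share of all tested genes given for the same comparison. A list near that share is not set apart by its count. The members and lists were chosen with earlier results of these data known; 1 receptor gene and 1 B lineage marker of the lists are not reported here. Alternatives were DESeq2 1.42.0, its size factors, library size alone, no filter, a stricter filter (1 CPM in 3 libraries), a GC correction, a replicate block, only the groups compared, each library left out, and, added after seeing the data, copies summed and the library of lowest GC slope left out of 3 groups. Same-numbered libraries deviated from their group means with correlations of -0.384 to 0.401, so the numbers were not taken as pairs.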

Additional observations from a re-analysis of the deposited data

Results flagged for a closer look

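Of the 6 tested genes, 4 passed the threshold for the interaction term of edgeR's quasi-likelihood fit, 1 higher and 3 lower. The share over all tested genes was 14.7%, with 8.04% higher and 6.62% lower. The term asks whether KPT-330+CS differed from KPT-330 as CS differed from DMSO. For CCL22 the interaction was -5.78 on the log2 scale (adjusted p = 2.1e-05), with 2 reads over the KPT-330+CS group. For EBI3 it was -3.46 (adjusted p = 0.0244), also with 2 reads over KPT-330+CS. The EBI3 call was lost in 5 of 19 alternative fits, each with a single library left out (adjusted p up to 0.07, edgeR quasi-likelihood). For IL10 the interaction was -3.18 (adjusted p = 0.00096), with 14 reads over KPT-330+CS and 266 over KPT-330. For CCL4 it was 1.27 (adjusted p = 0.014), and 0.50 with the reads of its copy added (adjusted p = 0.0455).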

How the results depend on the processing

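The count of members called held in every comparison under DESeq2, its size factors, no filter and the replicate block. In KPT-330 against DMSO it fell from 6 to 5 with library size alone, with copies summed and without the lowest-GC-slope libraries. Summing copies also ended the CCL4 call in KPT-330+CS against DMSO and against CS. In CS against KPT-330, CCL3 was gained with a GC correction, with only those groups in the fit and without the lowest-GC-slope libraries. Against DMSO, CS had 0 members called in the fit as reported, 2 with a GC correction, 1 without the lowest-GC-slope libraries and 0 to 1 with single libraries left out. The stricter filter removed TNF and EBI3 and left 3 members called in KPT-330+CS against DMSO, in KPT-330+CS against CS and in CS against KPT-330. With single libraries left out, 4 to 6 members were called in KPT-330 against DMSO, 5 to 6 in KPT-330+CS against DMSO, 4 in KPT-330+CS against KPT-330, 5 in KPT-330+CS against CS, 4 to 5 in CS against KPT-330 and 3 to 4 in the interaction. All genes called in CS against DMSO numbered 1729 as reported, 1036 with the replicate block, 4563 with a GC correction, 238 with only those libraries in the fit and 765 to 2573 with single libraries left out; for the interaction the numbers were 2853 as reported, 5121 with a GC correction and 1740 to 4803. The replicate numbers were not taken as pairs, and the correlations of same-numbered libraries cannot decide whether they are. With the replicate block the CS against DMSO calls of TNFRSF1A (adjusted p = 0.0608), IL10RA (0.098) and EGR3 (0.0606) and the KPT-330 call of CCL4L1 (0.0592) were lost. Values that changed sign, none of them called, were CCL4 in CS against DMSO with copies summed (0.036), EBI3 there with single libraries left out (-0.22 to 0.34), CCL4L1 in KPT-330+CS against DMSO without the lowest-GC-slope libraries (-0.032), CCL3 in KPT-330+CS against CS with library size alone (0.016), copies summed (0.226) or single libraries left out (-0.264 to 0.041), and CCL4L1 there with library size alone (0.056) or single libraries left out (-0.127 to 0.001). Scaling by library size alone moved the median of all genes by 0.16 in KPT-330, by 0.18 in KPT-330+CS against DMSO and by 0.12 in KPT-330+CS against CS; the share of calls that were higher was then 69.6% in KPT-330 against DMSO, where it was 51.0% as reported, 69.3% against 52.9% in KPT-330+CS against DMSO, 68.4% against 54.7% in KPT-330+CS against CS, 65.7% against 42.3% in CS against DMSO and 34.8% against 47.1% in CS against KPT-330. The cause of these changes was not tested. Depth limits LTA, LTB, TNF and EBI3, whose reads were too few for small differences.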
